A study of Mus musculus with 24 samples.

Results

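Neuropeptide genes were examined in mouse brain at 5 days post injury (dpi): Sst, Cort, Npy, Vip, Cck, Crh, Adcyap1, Penk, Tac1 and Pdyn. These 10 genes were picked by name among the 36333 genes of the expression table, and all 10 passed the filter on low expression. Traumatic brain injury (TBI) was induced by controlled cortical impact (CCI), and the tissue in and around the lesion was profiled by bulk RNA sequencing in mice labelled as male, C57BL6N and 12 to 16 weeks old. The methods name another substrain, C57BL/6JRj, for the study, with both sexes and a narrower age range. The 5 mice of the vehicle group had TBI and received no drug. The 5 PLX3397 mice had TBI and ate chow with PLX3397, an inhibitor of the microglial survival receptor CSF1R, at 290 mg/kg from 90 min after CCI. The 5 Anakinra mice had TBI and were injected subcutaneously with 100 mg/kg Anakinra, a blocker of the interleukin-1 receptor IL1R1, at 5 min and at 24, 48 and 72 h. The 5 PLX3397+Anakinra mice had TBI and received both drugs on these schedules. Per the methods, mice without PLX3397 ate vehicle chow, and mice without Anakinra were injected with saline as placebo. The 4 sham mice had no CCI and no drug, and per the methods had anesthesia and a skin incision without opening of the skull, so that the sham comparisons include the craniotomy as well as the impact. Vehicle animals alone carry the letter B in their animal number, and if that letter marks a batch, the batch and the vehicle group cannot be told apart.

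Neuropeptides are short messengers cut from larger precursor proteins in dense core granules and released beside classical transmitters onto G protein-coupled receptors. In the forebrain, Sst, Npy and Vip label classes of GABAergic interneurons, and Cort, a relative of Sst, is made in part of them. Cck is made by interneurons and also by many pyramidal cells. Projection neurons of the striatum produce enkephalin from Penk in the indirect pathway, and substance P from Tac1 and dynorphin from Pdyn in the direct pathway.

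Levels are given as TPM, a unit scaled by transcript length. The methods call the values CPM in the software's terms, and as a check of the scaling, 82.1% to 87.4% of the values between 0 and 0.1 within a library were distinct, whereas counts scaled by depth alone would repeat among genes with the same few reads. By the mean over the 24 mice, Sst had the highest level of the 10 genes (642 TPM), followed by Cck (594 TPM) and Penk (508 TPM). Npy reached 259.9 TPM and Tac1 104 TPM. Pdyn had 46.0 TPM, Vip 36.5 TPM and Cort 18.1 TPM. Crh had 7.76 TPM and Adcyap1 6.34 TPM. Sst was thus the 218th most abundant of all 36333 genes and Adcyap1 the 11930th.

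The labels give the tissue as cortex, but the methods name cortex, striatum, dorsal hippocampus and thalamus, and markers of both kinds were present. Ppp1r1b, the DARPP-32 gene of striatal projection neurons, had 670 TPM in sham mice. Slc17a7, the vesicular glutamate transporter of cortical and hippocampal neurons, had 1156 TPM in the same mice. Gad1, which makes GABA, had 267 TPM and the neuronal nuclear marker Rbfox3 had 110.2 TPM. The libraries held 22160 to 23249 genes above 0.

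Promoter sequences were looked up because the somatostatin promoter is a textbook target of the cAMP-responsive factor CREB. RefSeq windows on GRCm38 from 250 bases before to 50 bases after a start site were found for 8 of the 10 genes. They were searched on both strands for the whole cAMP response element TGACGTCA and for its core TGACG, which the whole element contains on each strand. The whole element was present in the window of Sst and in no window of the other 7 genes. It occurred in 1.79% of all 32851 windows, and the core in 20.8% of them. The core without the whole element was found for Vip, Cck, Tac1, Adcyap1 and Cort, and neither motif for Npy and Pdyn. Each gene's match nearest to the start is printed 5′ to 3′ on the gene's strand, with the matching letters in capitals (CGTCA is the core read from the other strand).
Sst, chr16:23890874-23890903, minus strand, 48 bases upstream: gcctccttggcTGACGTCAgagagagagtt
Vip, chr10:5639128-5639157, plus strand, 79 bases upstream: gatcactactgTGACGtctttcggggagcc
Cck, chr9:121495723-121495752, minus strand, 47 bases upstream: ctgctggactgCGTCAgcactgggtaaaca
Tac1, chr6:7555007-7555036, plus strand, 43 bases upstream: ctctacaggctCGTCAcgcctgagataaat
Adcyap1, chr17:93198915-93198944, plus strand, 91 bases upstream: gactaggatgcTGACGtcttttactgatac
Cort, chr4:149126764-149126793, minus strand, 18 bases upstream: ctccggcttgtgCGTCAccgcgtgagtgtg
For Sst and Tac1, GENCODE lists longer transcripts whose exons cover the printed stretch. A match of letters is a description of the sequence and no measure of binding.

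After injury 7 of the 10 neuropeptide genes were lower on TPM as deposited. The 4 interneuron genes Sst, Cort, Npy and Vip, together with Cck, Crh and Adcyap1, fell in vehicle versus sham mice, whereas Penk, Tac1 and Pdyn passed the test in no comparison between groups. The share of all 17267 genes tested that fell in vehicle versus sham was 27.7%. Differences were tested with limma on log2(TPM + 1), and every adjusted p given for a gene is the Benjamini-Hochberg value of that test over all genes tested, called when below 0.05. The median difference over the 10 genes was -0.47 on the log2 scale, against -0.01 over all genes tested. In 6 of the 10 genes all 5 vehicle mice lay below all 4 sham mice, and no overlap in either direction was seen for 42.7% of all genes tested. In bulk tissue, fewer cells of a type and less RNA per cell cannot be told apart.

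Sst encodes somatostatin, an inhibitory peptide of dendrite-targeting interneurons, and lies on chr16:23889573-23890958 (GRCm38, minus strand). The 4 sham mice had 736, 773, 779 and 835 TPM. The 5 vehicle mice had 449, 452, 571, 626 and 648 TPM. All vehicle values were below the lowest sham value, and 2 of them, from mice J19B and J18B, lay well under the other 3. The mean was 781 ± 40.9 TPM in sham mice (SD, n = 4) and 549 ± 94.5 TPM in vehicle mice (SD, n = 5), a log2 difference of -0.52 ± 0.10 (SE, adjusted p = 5.46e-05). Vehicle mice thus held 70.3% of the sham level.

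Cort encodes cortistatin, which shares receptors with somatostatin. Sham mice had 20.2, 26.0, 27.1 and 28.5 TPM. Vehicle mice had 8.57, 12.0, 14.9, 15.2 and 19.4 TPM. The groups did not overlap, although the highest vehicle mouse, J17B, came close to the lowest sham mouse, J15. The log2 difference of -0.85 ± 0.22 was the largest of the 10 genes (adjusted p = 0.00242), and its error was the largest too.

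Npy encodes neuropeptide Y, an inhibitory peptide of several interneuron classes. Sham mice had 255, 312, 323 and 350.5 TPM. Vehicle mice had 204, 215, 225, 226 and 246 TPM and did not reach the lowest sham value. The difference was -0.47 ± 0.08 on the log2 scale (adjusted p = 4.73e-05).

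Vip encodes vasoactive intestinal peptide, made by interneurons that mainly inhibit other interneurons. Sham mice had 44.8, 45.2, 49.2 and 51.0 TPM. Vehicle mice had 27.4, 30.6, 32.3, 32.9 and 39.2 TPM, again without overlap. The log2 difference was -0.54 ± 0.09 (adjusted p = 1.48e-05).

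Cck encodes cholecystokinin, and its values in sham mice were the tightest of the set, with a coefficient of variation of 2.69%. Sham mice had 772, 777, 807 and 815 TPM. Vehicle mice had 453, 473, 494, 531 and 561 TPM, far below all sham values. The difference of -0.66 ± 0.07 on the log2 scale had the smallest adjusted p of the 10 genes (7.92e-09), and vehicle mice held 63.4% of the sham level.

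Crh and Adcyap1 had the lowest levels of the 10 genes. Crh encodes corticotropin-releasing hormone, the stress peptide that cortical interneurons also make. It had 9.69, 9.92, 11.1 and 11.4 TPM in sham mice and 6.12, 6.31, 7.12, 7.61 and 9.53 TPM in vehicle mice. The groups did not overlap, and Crh fell by 0.48 ± 0.15 on the log2 scale (adjusted p = 0.0111). Adcyap1 encodes PACAP, a peptide that acts through cAMP. It had 6.97, 7.22, 8.30 and 8.68 TPM in sham mice and 4.83, 4.98, 5.46, 5.92 and 7.10 TPM in vehicle mice. Vehicle mouse J20B lay above the lowest sham mouse, and Adcyap1 fell by 0.41 ± 0.11 (adjusted p = 0.00295).

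**Figure D1:**
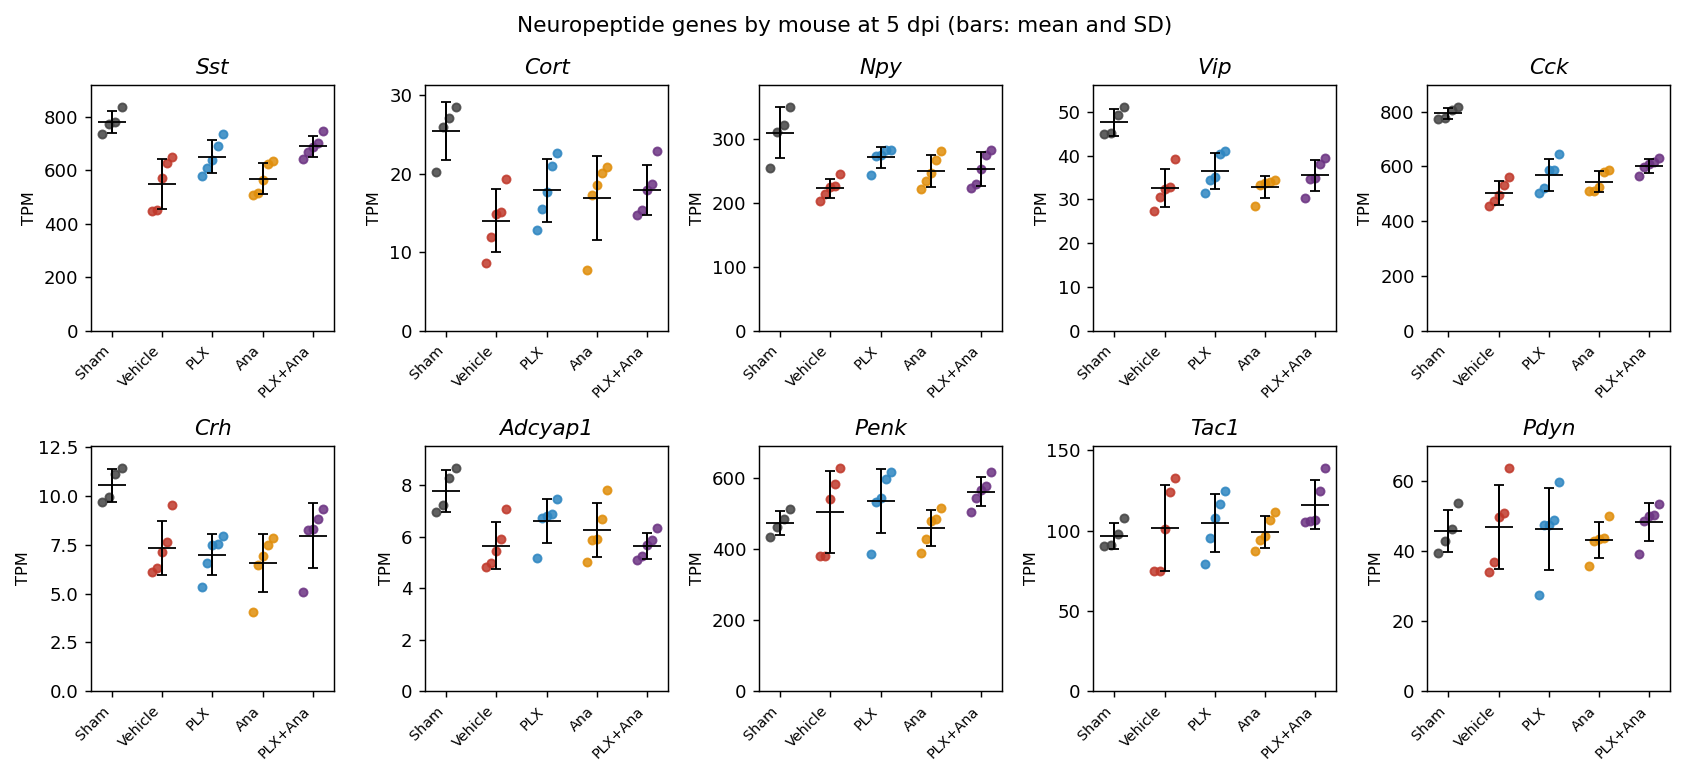
TPM of the 10 neuropeptide genes in each mouse (points) of the 5 groups, with the mean and SD as bars; PLX and Ana stand for PLX3397 and Anakinra, and each axis starts at 0. The 4 sham mice lie above all vehicle mice for Sst, Cort, Npy, Vip, Cck and Crh, whereas the groups overlap for Penk, Tac1 and Pdyn.

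The 3 striatal peptide genes were not called and spread widely among vehicle mice. Penk, the enkephalin precursor, had 433, 463, 485 and 513 TPM in sham mice. In vehicle mice it had 381, 382, 542, 583 and 628 TPM, with 2 values below and 3 above all sham values. The log2 difference was 0.06 with a 95% confidence interval from -0.22 to 0.33 (adjusted p = 0.741), and the coefficient of variation was 22.9% in vehicle and 7.08% in sham mice. Penk shares up to 157 exon bases with a transcript on the other strand, A830012C17Rik, and whether reads were assigned by strand is not given in the sources used here.

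Tac1, the substance P precursor, had 90.3, 90.8, 97.8 and 108 TPM in sham mice. Vehicle mice had 75.1, 75.1, 101 and 124 TPM, and the highest had 133 TPM. Here 2 vehicle mice lay below, 1 within and 2 above the sham range, and the log2 difference was 0.03 (-0.27 to 0.33, adjusted p = 0.86). Pdyn, the dynorphin precursor, had a log2 difference of 0.01 (-0.34 to 0.36, adjusted p = 0.954), with 39.5 to 53.5 TPM in sham and 33.9 to 63.6 TPM in vehicle mice. The lower ends of these 3 intervals lay above the estimate of -0.41 for Adcyap1, which had the smallest fall of the 7 genes called. The interval of Adcyap1 itself (-0.63 to -0.18) overlapped all 3, and differences between genes were not tested.

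The low Penk, Tac1 and Pdyn values in the vehicle group came from mice J18B and J19B, which were also low in the 8 striatal markers. The summed TPM of these markers was 1039 and 1070.3 in the 2 mice and 1335 to 1499 in the other vehicle mice. In the PLX3397 group, mouse J02 was lowest in Penk (386 TPM), Tac1 (79.1 TPM) and Pdyn (27.5 TPM), and its striatal markers summed to 956 TPM against 1368 to 1396 TPM in the other 4 mice. None of the 8 striatal markers was called in vehicle versus sham, with a median difference of 0.01. The part of the amount of striatum in each sample in these values was not tested.

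**Figure D2:**
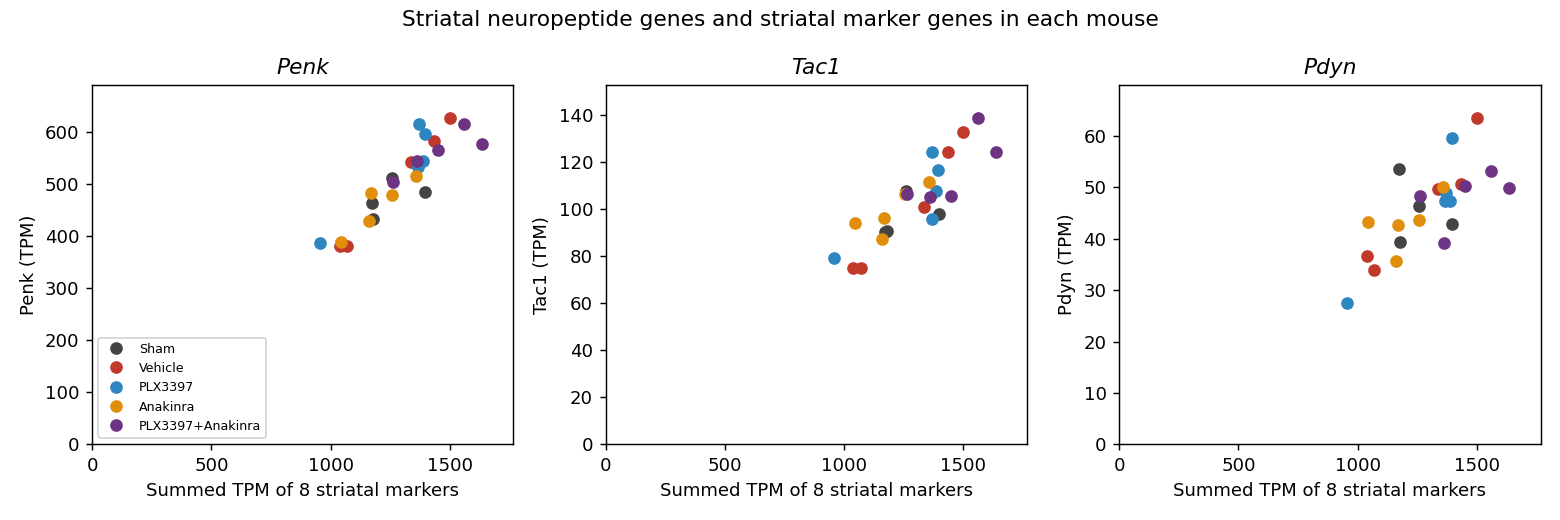
Penk, Tac1 and Pdyn (TPM, vertical axes) against the summed TPM of 8 striatal projection neuron markers (horizontal axes), with 1 point per mouse coloured by group. Vehicle mice J18B and J19B and PLX3397 mouse J02 form the lower end in the Penk and Tac1 panels, joined in the Penk panel by Anakinra mouse J21 (388 TPM). PLX3397+Anakinra mice lie in the upper part of the horizontal range (1263 to 1636 TPM), and the other groups are intermixed.

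General neuronal genes fell by an amount close to that of the interneuron peptides. All 10 pan-neuronal genes, among them Rbfox3, fell in vehicle versus sham, with a median of -0.55, and their summed level was 9390 to 9757 TPM in sham and 6030 to 7222 TPM in vehicle mice. When each library was centred on the mean of these 10 genes, the median difference of all genes tested moved to 0.51, so values on that scale are to be read against it. On that scale Sst differed by -0.0031 ± 0.07, Vip by -0.02 ± 0.08 and Npy by 0.05 ± 0.09, and none was called. Cck was still lower (-0.14 ± 0.06, adjusted p = 0.0458), and Cort had the most negative value without passing the test (-0.33 ± 0.22, adjusted p = 0.155). Crh and Adcyap1 had positive values of 0.04 and 0.11 that were not called. Penk (0.58 ± 0.11), Tac1 (0.55 ± 0.12) and Pdyn (0.53 ± 0.14) were higher in vehicle than in sham mice relative to pan-neuronal genes (adjusted p = 2.76e-05, 0.000146 and 0.00134), by about as much as the median gene. Whether these 3 genes and the interneuron peptides pass the test therefore depends on the scale.

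**Figure D3:**
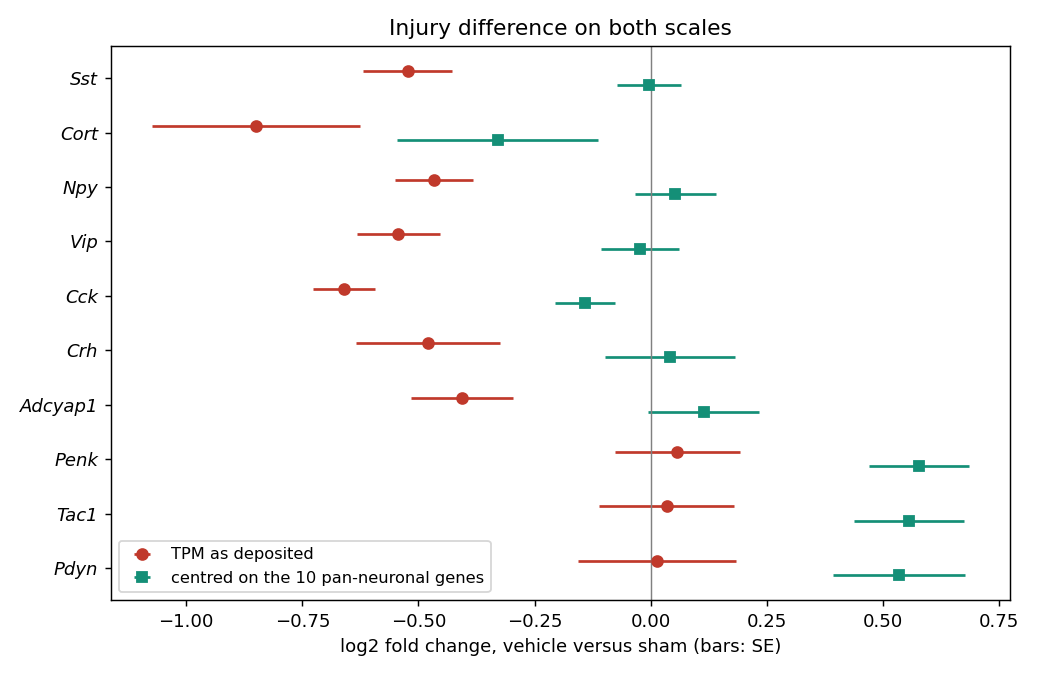
Log2 difference between vehicle and sham mice (horizontal axis, bars: SE) for the 10 genes, on TPM as deposited (circles) and after centring each library on 10 pan-neuronal genes (squares). Centring brings Sst, Npy, Vip, Crh and Adcyap1 close to 0 and moves Penk, Tac1 and Pdyn to between 0.53 and 0.58.

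Markers of other cells moved with the injury. All 6 microglia markers, all 6 monocyte and macrophage markers and all 5 astrocyte markers rose in vehicle versus sham, and the summed level of the macrophage markers was 38.5 to 42.7 TPM in sham and 1598 to 3108 TPM in vehicle mice. TPM add up to the same total in each library, so a gain of these cells lowers the values of all other genes, and its part in the peptide differences was not tested. Among neuronal lists, 7 of 8 glutamatergic forebrain markers fell (median -0.76), whereas on the centred scale 6 were lower and 1 higher. Camk2a and Tbr1 were lower on both scales. Of 10 interneuron markers without peptide genes 5 fell and none rose (median -0.32), whereas relative to pan-neuronal genes 5 were higher and none lower (median 0.20). On that scale the median of all genes was 0.51, and 86.9% of all genes tested were called, 1.53% as lower. Adarb2, a marker of interneurons from the caudal ganglionic eminence, fell by 0.50 (adjusted p = 5.89e-06), and Pvalb, of fast-spiking interneurons, by 0.48 (adjusted p = 2.9e-05). Gad1 fell by 0.38 (adjusted p = 0.000542), while Gad2, the other GABA-synthesizing enzyme, had a difference of -0.03 (adjusted p = 0.824). On the centred scale Gad1 (0.14, adjusted p = 0.0167) and Gad2 (0.49, adjusted p = 6.39e-06) were called higher. Of 6 thalamic markers 5 fell, and of 6 hippocampal markers 2 fell.

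Receptors of these peptides fell more often than they rose. Of 22 listed receptor and binding protein genes 21 were tested, and in vehicle versus sham 11 fell and none rose (median -0.31), whereas relative to pan-neuronal genes 4 were lower and 11 higher, with a median of 0.21 against 0.51 for all genes. Cckbr, the main cholecystokinin receptor of the forebrain, fell from 50.2 ± 5.4 TPM in sham (SD, n = 4) to 24.1 ± 2.3 TPM in vehicle mice (SD, n = 5), a log2 difference of -1.03 (adjusted p = 1.38e-09). Sstr3, a somatostatin receptor of neuronal cilia, fell by 0.76 (adjusted p = 2.37e-09), and Npy1r, a receptor for neuropeptide Y, by 0.68 (adjusted p = 4.37e-09). Sstr1, Sstr2 and Sstr4, which bind somatostatin and cortistatin, also fell, by 0.42, 0.31 and 0.42 (adjusted p = 8.64e-05, 0.0218 and 0.000158). Crhr1, the receptor of Crh, fell by 0.78 (adjusted p = 3.49e-08), and Crhbp, which binds the peptide outside cells, by 0.61 (adjusted p = 0.000934). Vipr1 fell by 0.64 (adjusted p = 3.36e-06), and Npy5r by 0.55 (adjusted p = 0.000412). The 4 that were lower on the centred scale too were Cckbr (-0.51, adjusted p = 3.3e-06), Sstr3 (-0.24, adjusted p = 0.00649), Crhr1 (-0.26, adjusted p = 0.00169) and Npy1r (-0.16, adjusted p = 0.037).

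Adcyap1r1, the PACAP receptor, had the highest level of these genes and was not called (94.6 TPM in sham and 102 TPM in vehicle mice, adjusted p = 0.0524). For the striatal peptides the picture was mixed. Oprd1, the delta receptor for enkephalin, fell by 0.34 (adjusted p = 0.00312). Oprm1, Oprk1 and Tacr1, the receptors for mu opioids, dynorphin and substance P, had differences of 0.02, 0.29 and 0.04 that were not called (adjusted p = 0.915, 0.0565 and 0.797). On the centred scale Oprd1 (0.18), Oprm1 (0.54), Oprk1 (0.81), Tacr1 (0.56) and Adcyap1r1 (0.63) were called higher (adjusted p from 5.47e-11 to 0.0201). The median of all genes on that scale was 0.51.

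The machinery that makes peptides fell in part. Of 12 processing and granule genes 8 fell and 1 rose, whereas relative to pan-neuronal genes 6 were higher and none lower (median 0.14). The median of all genes on that scale was 0.51, and 86.9% of them were called. The granule protein gene Chgb fell by 0.52 (adjusted p = 2.76e-09), and the prohormone convertase genes Pcsk2 and Pcsk1 by 0.57 and 0.67 (adjusted p = 1.24e-07 and 6.01e-06). Pam, which amidates peptide ends, fell by 0.31 (adjusted p = 4e-06), but was called higher on the centred scale (0.21, adjusted p = 0.000471). Scg3, a granule protein, rose by 0.39 (adjusted p = 1.98e-07). Cpe, which trims peptide ends, differed by 0.06 (adjusted p = 0.187), and Scg2, another granule protein gene, was not called either (adjusted p = 0.996).

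Among 18 other neuropeptide precursors 15 were tested, of which 3 fell and 1 rose. Relative to pan-neuronal genes 5 were higher and none lower, on a scale where 86.9% of all genes were called. Gal, the galanin precursor, known to be induced in injured neurons, was the one that rose, from 3.86 ± 2.2 TPM in sham (SD, n = 4) to 12.2 ± 3.8 TPM in vehicle mice (SD, n = 5), a log2 difference of 1.53 (adjusted p = 0.000155), and it was higher on the centred scale too (2.05). Pnoc, Pthlh and Grp fell by 0.38, 0.45 and 0.46 (adjusted p = 0.00145, 0.00757 and 0.0118). Precursors of hypothalamic peptides such as Pmch and Hcrt varied widely between mice of 1 group (37.6 ± 48 and 19.4 ± 29 TPM in vehicle mice, SD, n = 5).

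**Figure D4:**
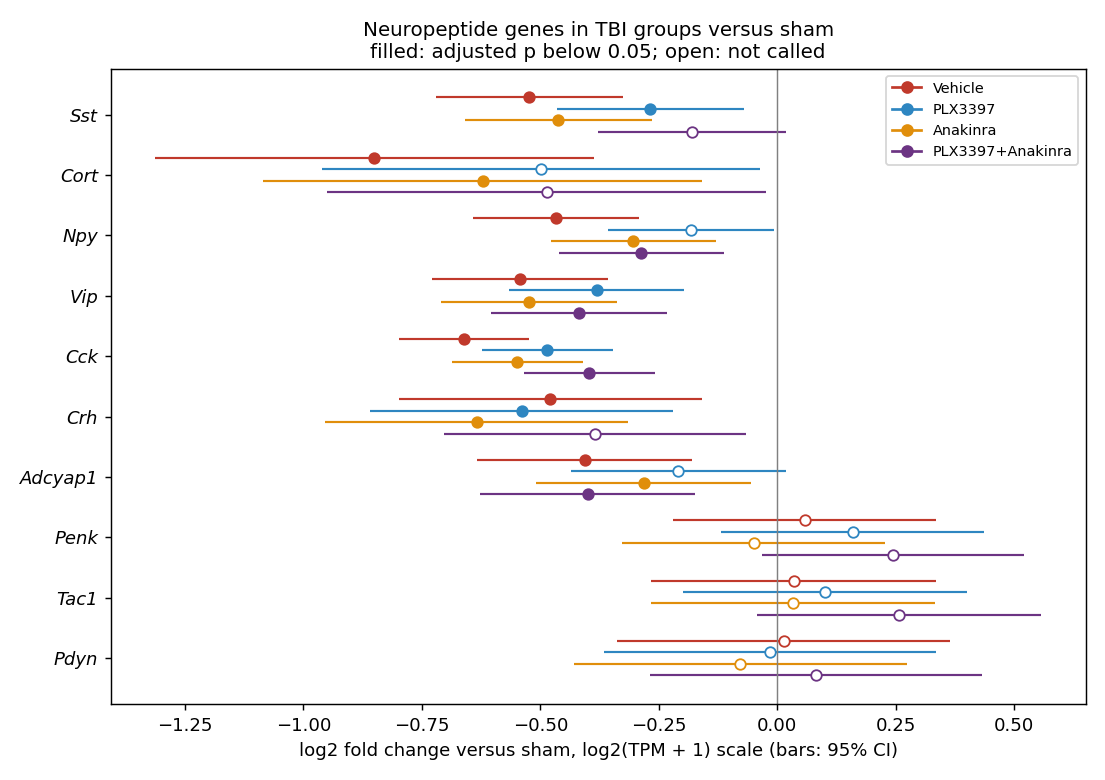
Log2 difference from sham (horizontal axis, bars: 95% confidence interval) of the 10 genes in the 4 TBI groups, with filled points for adjusted p below 0.05. Points of the upper 7 genes lie left of 0 in every group, and 4 of these genes are called in the PLX3397 and PLX3397+Anakinra groups against 7 in the vehicle and Anakinra groups.

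The drug-treated groups were next set against sham. The 4 comparisons share the sham mice. In Anakinra mice 7 genes fell (Sst, Cort, Npy, Vip, Cck, Crh and Adcyap1, against 29.2% of all genes tested). In PLX3397 mice 4 genes fell (Sst, Vip, Cck and Crh, against 22.5% of all genes), and in PLX3397+Anakinra mice 4 fell (Npy, Vip, Cck and Adcyap1, against 18.1%). On TPM as deposited, with all libraries in the fit, none of the 10 genes rose in any TBI group. When PLX3397+Anakinra and sham mice alone were fitted, 7 genes were called lower, against 17.5% of all genes. Sst, Cort and Crh were among them (adjusted p = 0.0156, 0.00629 and 0.0353). In the same fit Penk (0.24, adjusted p = 0.0075) and Tac1 (0.26, adjusted p = 0.0282) were called higher, against 20.2% of all genes. The 8 striatal markers had a median difference of 0.24 between these groups, and none was called with all libraries in the fit. After centring on the pan-neuronal genes, no member was called lower in any of the 3 drug-treated groups, and Penk, Tac1 and Pdyn were called higher in each (adjusted p from 6.08e-05 to 0.0285). Npy was then called higher in Anakinra mice too (0.20, adjusted p = 0.0394). The median of all genes on that scale stood at 0.46 in Anakinra, 0.35 in PLX3397 and 0.33 in PLX3397+Anakinra versus sham. Of all genes tested, 84.9% were called there in Anakinra, 76.8% in PLX3397 and 75% in PLX3397+Anakinra versus sham. Those called lower made up 1.19%, 1.89% and 1.14% of all genes. The following values are on TPM as deposited, with all libraries in the fit unless stated. Cck, at 63.4% of the sham mean in vehicle mice, stood at 68.4% in Anakinra, 71.7% in PLX3397 and 76.0% in PLX3397+Anakinra mice, and was called in each group. Sst, at 70.3% of the sham mean in vehicle mice, stood at 72.8% in Anakinra, 83.3% in PLX3397 and 88.3% in PLX3397+Anakinra mice. Its difference from sham was called in PLX3397 mice (adjusted p = 0.0249) and not in PLX3397+Anakinra mice (-0.18, 95% confidence interval from -0.38 to 0.02, adjusted p = 0.143). The call in PLX3397 mice was lost without PLX3397 mouse J02 or J20 or sham mouse J07 (adjusted p = 0.0717, 0.0574 and 0.0774). Crh was below all sham mice in every PLX3397+Anakinra mouse but did not pass the test (-0.38, adjusted p = 0.052), and 30.9% of all genes tested did not overlap between these groups. Crh was called lower there with a minimum mean of 5 TPM and after median ratio rescaling (adjusted p = 0.045 and 0.0471). Leaving out vehicle mouse J17B, PLX3397 mouse J02, Anakinra mouse J05 or PLX3397+Anakinra mouse J17 also gave that call (adjusted p from 0.0237 to 0.0455). Cort in Anakinra mice was called at -0.62 (adjusted p = 0.0219), but not without Anakinra mouse J05 or sham mouse J07 or J08 (adjusted p = 0.0862, 0.0516 and 0.0609). The Adcyap1 call in Anakinra mice (-0.28, adjusted p = 0.033) was lost without any of 5 mice, Anakinra J05, J06 and J14 and sham J15 and J16. That call was also lost with no filter on low expression (adjusted p = 0.0603) and after median ratio rescaling (adjusted p = 0.0538). The Npy call in PLX3397+Anakinra mice (-0.29, adjusted p = 0.0088) was lost without sham mouse J08.

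The next question was whether treatment changed peptide expression after TBI. These comparisons share the vehicle mice. Sst and Cck were higher in PLX3397+Anakinra than in vehicle mice and Npy was higher in PLX3397 mice, and none of the 10 genes was called in Anakinra mice. All of these differences were small, from 0.26 to 0.34 on the log2 scale.

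In PLX3397+Anakinra mice Sst had 644, 669, 686, 703 and 745 TPM, and 4 of the 5 lay above the highest vehicle mouse. The mean of 689 ± 38.2 TPM (SD, n = 5) exceeded that of vehicle mice by 0.34 ± 0.09 on the log2 scale (adjusted p = 0.00935), or 25.5%. Cck had 563, 597, 607, 616 and 630 TPM, all above the highest vehicle mouse, although the lowest exceeded it by under 2 TPM, and no overlap was seen for 10.7% of all genes tested. The difference was 0.26 ± 0.06 (adjusted p = 0.00422), or 19.9%. These 2 of 10 genes compare with 7.88% of all genes tested that rose, and the median over the 10 genes was 0.18 against 0.01 over all genes. Both calls held when any 1 mouse was left out.

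The remaining members did not pass the test in PLX3397+Anakinra versus vehicle. Npy had a difference of 0.18 (adjusted p = 0.126) and Cort one of 0.36 with a wide interval from -0.07 to 0.80 (adjusted p = 0.262). Penk (0.19), Tac1 (0.22), Vip (0.13), Crh (0.09) and Pdyn (0.07) had smaller or more variable differences (adjusted p from 0.292 to 0.828). Adcyap1 was at 0.01 (-0.21 to 0.22).

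General neuronal genes moved in the same comparison. Of 10 pan-neuronal genes 7 rose (median 0.21), and their summed level was 7415 to 7835 TPM in PLX3397+Anakinra mice against 6030 to 7222 TPM in vehicle mice. All 6 microglia and all 6 macrophage markers fell, and so did all 4 red blood cell markers. After centring on the pan-neuronal genes, where the median of all genes stood at -0.17, Sst differed by 0.15 (adjusted p = 0.0566) and Cck by 0.08 (adjusted p = 0.31), and neither was called. On that scale 42.7% of all genes tested were called, 42.1% as lower, and the centred counts below are to be read against these shares. Of 8 glutamatergic markers 6 rose, among them Camk2a (0.30, adjusted p = 0.00146) and Tbr1 (0.36, adjusted p = 0.00255), whereas on the centred scale 1 was higher (Tbr1, 0.17, adjusted p = 0.0335) and 1 lower. Of 10 interneuron markers Adarb2 alone rose (0.26, adjusted p = 0.016). On the centred scale Adarb2 was not called (0.07, adjusted p = 0.475) and Gad2 was lower (-0.19, adjusted p = 0.0484). Among the receptors 3 of 21 rose and none fell, namely Sstr4 (0.26, adjusted p = 0.0278), Sstr3 (0.22, adjusted p = 0.0291) and Cckbr (0.26, adjusted p = 0.0462), whereas on the centred scale none rose and 2 fell. Pcsk2 and Scg5, both of the convertase pathway, rose by 0.25 and 0.21 (adjusted p = 0.00733 and 0.0335), and Scg3 fell by 0.14 (adjusted p = 0.0365). On the centred scale Pcsk2 (0.06, adjusted p = 0.232) and Scg5 (0.03, adjusted p = 0.796) were not called. Scg3 was lower there (-0.33, adjusted p = 0.000254), and so were Cpe, Pam and Scg2. Gal fell by 0.92 (adjusted p = 0.0275), by 1.11 on the centred scale (adjusted p = 0.00652), and was the sole precursor of the 15 to be called in PLX3397+Anakinra versus vehicle on TPM as deposited (2 were lower on the centred scale). Of the 8 striatal markers, with a median of 0.21, Gpr6 alone was called (0.38, adjusted p = 0.0429). Of the thalamic markers Rgs16 (0.43), Ramp3 (0.47) and Synpo2 (0.33) rose (adjusted p = 0.00117, 0.00137 and 0.0402). On the centred scale Rgs16 (0.24, adjusted p = 0.0286) and Ramp3 (0.28, adjusted p = 0.0147) were still higher. Synpo2 (0.14, adjusted p = 0.304) and Gpr6 (0.19, adjusted p = 0.162) were not called there.

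In PLX3397 mice Npy had 244, 274, 276, 283 and 284 TPM, and 4 of the 5 lay above the highest vehicle mouse. The difference from vehicle was 0.28 ± 0.08 (adjusted p = 0.0219), and 1 of 10 genes rising compares with 3.23% of all genes. The call was lost without vehicle mouse J18B or J20B or PLX3397 mouse J19 or J20 (adjusted p = 0.0579, 0.0671, 0.0514 and 0.051). Without vehicle mouse J17B 3 genes were called, Npy, Sst and Cck. Sst was also called without vehicle mouse J01B or PLX3397 mouse J02 (adjusted p = 0.0234 and 0.0491), and Cck without PLX3397 mouse J12 (adjusted p = 0.0294). With all mice, Sst (0.26, adjusted p = 0.0755) and Cck (0.18, adjusted p = 0.0793) were not called. Of the pan-neuronal genes 5 of 10 rose in PLX3397 versus vehicle (median 0.17), and after centring on them the Npy difference was 0.13 (adjusted p = 0.211), with the median of all genes at -0.15. Penk, Tac1 and Pdyn had differences of 0.10, 0.07 and -0.03 (adjusted p from 0.7 to 0.941).

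In Anakinra versus vehicle mice limma called none of the 10 genes, and none had an unadjusted p below 0.05. Of all genes tested, 0.116% were called. The interval for Npy ended just below 0 (0.16, 95% confidence interval from -0.0012 to 0.33), Cort had 0.23 with a wide interval (-0.21 to 0.66) and Sst had 0.06 (-0.12 to 0.25). Anakinra mouse J05 was the lowest of its group in Vip (28.4 TPM), Cort (7.70 TPM) and Crh (4.05 TPM). It was also the lowest in Cck (509 TPM), Tac1 (87.2 TPM), Pdyn (35.7 TPM) and Adcyap1 (5.02 TPM).

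**Figure D5:**
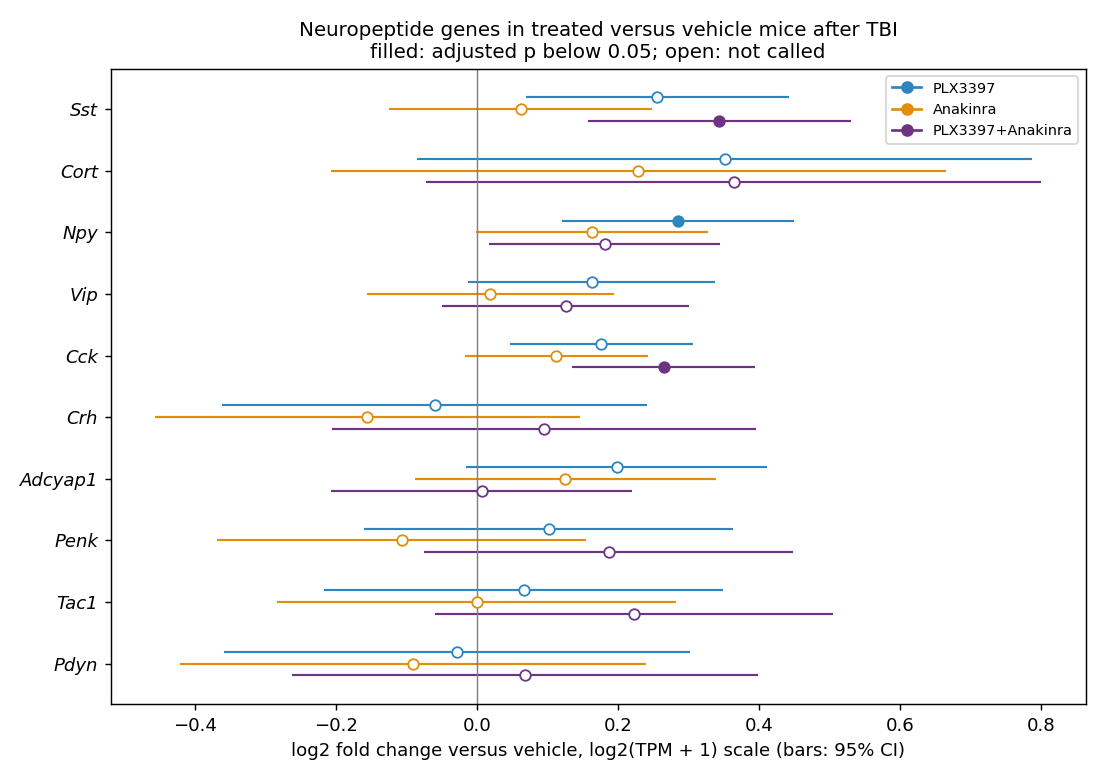
Log2 difference from vehicle (horizontal axis, bars: 95% confidence interval) of the 10 genes in the 3 drug-treated groups, with filled points for adjusted p below 0.05. Filled points are Npy under PLX3397 (0.28) and Sst (0.34) and Cck (0.26) under PLX3397+Anakinra, and no Anakinra point is filled.

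The treated groups were also compared with each other. Sst was higher in PLX3397+Anakinra than in Anakinra mice by 0.28 ± 0.09 (adjusted p = 0.0404), and 1 of 10 genes rising compares with 4.67% of all genes. Anakinra mice had 509, 516, 562, 622 and 633 TPM, all below the lowest PLX3397+Anakinra mouse, and no overlap was seen for 11.2% of all genes tested. The call was lost in 7 of the 10 fits that each left out 1 mouse of these groups, with adjusted p from 0.0626 to 0.116. It was also lost with no filter on low expression (adjusted p = 0.0781), after median ratio rescaling (0.25, adjusted p = 0.0692), without the variance trend (adjusted p = 0.0573) and after pan-neuronal centring (0.11, adjusted p = 0.195). Penk differed by 0.29 in this comparison without passing the test (adjusted p = 0.128). The 8 striatal markers had a median of 0.30 there, with 2 called higher and 0 lower. None of the 10 genes was called by limma between PLX3397+Anakinra and PLX3397 mice, where none had an unadjusted p below 0.05 either (0.151% of all genes were called). None was called between PLX3397 and Anakinra mice, where Sst alone had an unadjusted p below 0.05 (6.69% of all genes were called).

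Whether Anakinra acted differently with and without PLX3397 was tested as an interaction. limma called none of the 10 genes and none of the 17267 genes tested, and 8.08% of all genes had an unadjusted p below 0.05. Of the 10 genes Npy (-0.27 ± 0.11, adjusted p = 0.558) and Adcyap1 (-0.32 ± 0.15, adjusted p = 0.59) were below an unadjusted p of 0.05. For Sst the interaction was 0.03 ± 0.13 and for Cck -0.02 ± 0.09.

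Over all 5 groups limma's F-test called 7 of the 10 genes, against 51.9% of all genes tested. The 7 were those that fell in vehicle mice, with adjusted p from 1.15e-07 for Cck to 0.0333 for Cort, and Penk, Tac1 and Pdyn were not called (adjusted p = 0.249, 0.467 and 0.921). By group means, Sst ran from sham over PLX3397+Anakinra, PLX3397 and Anakinra to vehicle (781, 689, 650.1, 568 and 549 TPM), and no step between neighbours passed the test. Cck had the same order (793, 602, 568, 543 and 502 TPM), and its first step from sham was called. For Vip the order was sham, PLX3397, PLX3397+Anakinra, Anakinra and vehicle (47.6, 36.4, 35.5, 32.8 and 32.5 TPM), and there too the first step alone was called. Npy followed the order of Vip (310.4, 272, 254, 250.5 and 223 TPM) with no step called. Neighbours in the order of group means did not pass the test for the other 6 genes.

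Genes with the most similar pattern over the 24 mice differed between the sets, as measured by Pearson's r of log2(TPM + 1). The mice share groups and tissue composition, so these values only describe the libraries. Penk was similar to Adora2a (r = 0.93) and Drd1 (0.92), and Tac1 was most like Drd1 (0.93), Penk (0.92) and Rarb (0.90). Pdyn was most like Gpr83 (0.88), Gnal (0.83) and Drd1 (0.81). Adora2a and Drd1 encode the adenosine and dopamine receptors of indirect and direct pathway neurons. Sst was most like Ndrg4 (0.94), Klf16 (0.93) and Tspan7 (0.93), and Cck was most like Rgs7, Nrn1 and Fam131a (all 0.95). Vip was most like Pgam5 (0.93), Stmn2 (0.93) and Serpini1 (0.93), of which Stmn2 was among the pan-neuronal genes. Npy was most like Ndufv1 (0.86), Rae1 (0.85) and Tceal5 (0.85). Crh was most like Armc8 (0.91), Pdpk1 (0.90) and Lrrtm3 (0.89), and Cort was most like Bend5, Ldhb and Mcrs1 (all 0.84). Adcyap1 had the weakest similarity, to Nars (0.79), Bdnf (0.78) and Bend5 (0.78).

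Within groups, after the group means were removed, Penk correlated with Tac1 (r = 0.93) and with Pdyn (0.84) over the 24 mice. Sst correlated more with Penk (0.79), Pdyn (0.74) and Tac1 (0.68) than with Npy (0.42) or Vip (0.16). Vehicle mice J18B and J19B, low in the striatal peptides, were also the lowest of their group in Sst.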

How the data were processed

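Bulk polyA RNA-seq of 24 mice (1 library each, grouped by the treatment in the labels) was analysed. The authors mapped paired-end reads to mm10 (GRCm38) in CLC Genomics Workbench and deposited TPM per gene, scaled by length and summing to 1000000 per library. Read counts were not used here, so depth is unknown, no counting intervals are given and precision rests on the 4 or 5 mice per group. A rounded copy and a filtered table with the authors' p-values and F values were not used.

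TPM were tested in limma 3.58.1 (R 4.3.3) on log2(TPM + 1), a scale that understates changes of low genes. The fit had 1 mean per group, all 24 libraries, a variance trend and the 17267 genes whose mean reached 0.5 TPM. It gave 10 pairwise comparisons, an F-test and an interaction, with Benjamini-Hochberg adjustment and calls below 0.05. The script was tested on simulated data. Members and gene lists were chosen with earlier results of these data known. The text names the 10 members, 3 most similar genes each, 4 tissue checks, receptors, and up to 3 called genes per list, direction and comparison. Some genes that this rule selects are not reported here. Further genes of the receptor, processing, precursor and interneuron lists were named after their values were seen. Gene positions are from GENCODE vM21. Alternatives covered the pseudocount, filter, scaling, trend, libraries in the fit, criteria and leaving out each mouse.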

Additional observations from a re-analysis of the deposited data

Results flagged for a closer look

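Of 50 sets of values (10 genes in 5 groups), 4 held a mouse that stood far from the others of its group, and chance alone marks about 1 in 20 sets. In the PLX3397 group, mouse J02 had the lowest Npy (244 TPM, next 274 TPM). In the Anakinra group, mouse J05 had the lowest Vip (28.4 TPM, next 33.3 TPM) and the lowest Cort (7.70 TPM, next 17.3 TPM). In the PLX3397+Anakinra group, mouse J09 had the lowest Crh (5.10 TPM, next 8.25 TPM). Without J05, Cort and Adcyap1 were no longer called in Anakinra versus sham (adjusted p = 0.0862 and 0.106 in limma), and Cort was called in PLX3397 and PLX3397+Anakinra versus sham (adjusted p = 0.0206 and 0.0274). Crh was then called in PLX3397+Anakinra versus sham too (adjusted p = 0.0237).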

How the results depend on the processing

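With a pseudocount of 0.1 all calls of members were kept. The 1 member called in PLX3397+Anakinra versus Anakinra became 0 with no filter, after median ratio rescaling, without the variance trend and after pan-neuronal centring, and 2 when only the compared groups were fitted. Of all genes tested, 25.1% were called in that comparison after centring and 13% when only the compared groups were fitted. Fitting only the compared groups gave 9 calls in PLX3397+Anakinra versus sham, where 37.7% of all genes were called: Npy, Vip, Cck, Adcyap1, Sst, Cort and Crh were lower, and Penk and Tac1 higher. Pan-neuronal centring gave 4 calls in vehicle versus sham (Cck lower, and Penk, Tac1 and Pdyn higher, against 86.9% of all genes called). It gave 4 in Anakinra versus sham (Npy, Penk, Tac1 and Pdyn, all higher, against 84.9%). It gave 0 in PLX3397 versus vehicle (against 30.2%), 0 in PLX3397+Anakinra versus vehicle (against 42.7%) and 3 over the 5 groups. It changed the sign of 36 of the 100 values of members, 11 of them called on at least 1 of the scales: Sst to 0.10 in PLX3397 and 0.039 in Anakinra versus sham, Npy to 0.053 in vehicle, 0.20 in Anakinra and 0.045 in PLX3397+Anakinra versus sham, Penk to 0.45 in Anakinra versus sham, Pdyn to 0.35 in PLX3397 and 0.42 in Anakinra versus sham, Adcyap1 to 0.11 in vehicle and 0.22 in Anakinra versus sham, and Crh to 0.041 in vehicle versus sham. The construction of this scale sets the pan-neuronal genes to no change. The study's criteria (unadjusted p below 0.05, a ratio above 2 and a difference above 4 TPM) gave 0 calls in the 7 comparisons that had any, since no member changed 2-fold. Leaving out 1 mouse gave 0 to 3 calls in PLX3397 versus vehicle and 0 to 1 in PLX3397+Anakinra versus Anakinra, and 7 in every fit of vehicle versus sham. No paired analysis was possible because no 2 groups share an animal number as written, and whether numbers with and without the letter B are related is not given. Groups of 4 and 5 mice and unknown depth limit what differences of low genes such as Crh and Adcyap1 could be seen.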
